A study of Mus musculus with 94 samples.

Results

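Genes that govern the G1 phase of the cell cycle, 10 in all, were followed across single basophils from mouse bone marrow: the D-type cyclins Ccnd1, Ccnd2 and Ccnd3, their kinases Cdk4 and Cdk6, the E-type cyclins Ccne1 and Ccne2, and the kinase inhibitors Cdkn1a, Cdkn1b and Cdkn2c. The genes were taken by name from a list of 10, and all 10 were present among the 46078 gene identifiers of the count table. The question was which cyclin and which inhibitor go with cycling and with non-cycling cells. The cells came from 3 female C57BL/6 mice and were index-sorted one per well, 47 from a CD34+ gate and 47 from a CD34- gate. Both gates took live cells that lacked lineage markers and Sca1 and carried FcεRI, the high-affinity IgE receptor of basophils and mast cells. CD34 is a glycoprotein on the surface of hematopoietic progenitors. No genetic change or treatment is named for either gate. The labels do not tie cells to mice, so each gate is 1 sample, no test between gates could be made, and every difference given here describes these cells.

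D-type cyclins bind CDK4 or CDK6 and start the phosphorylation of the retinoblastoma protein, which holds back the E2F transcription factors. Released E2F raises the E-type cyclins, which bind CDK2 and carry the cell into S phase. CDKN2C (p18) binds CDK4 and CDK6 and keeps them from their cyclins, whereas CDKN1A (p21) and CDKN1B (p27) bind assembled cyclin-CDK complexes. CDKN1A is a target of p53, and CDKN1B is degraded after phosphorylation by CDK2.

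After a filter on reads and genes, 92 cells were kept, 46 in each gate, with 262944 to 938322 gene reads per CD34- cell and 374011 to 1154738 per CD34+ cell. At 200000 gene reads drawn from each cell, the median number of genes found was 4527 in CD34- cells and 6522.5 in CD34+ cells, and the median number of gene reads per read of ERCC spike-in RNA was 6.87 and 14.4. All 9 genes of a basophil list had reads in both gates, with a summed level of 47407 CPM (gene reads scaled to a total of 1e6) in CD34- cells (243 to 140629 per cell) and 99102 CPM in CD34+ cells (5205 to 174702 per cell). A progenitor list of 8 genes was at 524 CPM and 7489 CPM. It includes Cd34, and the basophil list includes a chain of FcεRI, so neither level is independent of the sort. Of other cell types, a monocyte and dendritic cell list of 6 genes was at 513 CPM in CD34- and 51.7 CPM in CD34+ cells, a neutrophil list at 19.7 and 67.4 CPM with Ltf and Camp at 0 reads, an erythroid list at 0.81 and 36.6 CPM with Hba-a1 at 0 reads, and a mast cell list at 0.030 and 7.33 CPM. An eosinophil list was at 76.6 and 112 CPM, a B cell list at 64.0 and 49.0 CPM and a megakaryocyte list at 0.030 and 2.63 CPM. Most of these levels, less so that of the B cell list, moved with the gate. Their part in the differences between gates was not tested.

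Cycling was read from 42 S phase and 54 G2/M phase genes, none of them among the 10 regulators, as the percent of these 96 genes found in a cell at 200000 gene reads. The percent was 8.33 to 89.6 with a median of 15.6 in CD34- cells, and 16.7 to 88.5 with a median of 47.4 in CD34+ cells. Cells with at least 50% are called the high range, which held 22 of 46 CD34+ cells and 2 of 46 CD34- cells. The high range is a stretch of a score and not a cell type, and 9 CD34+ cells lay within 5 points of its bound, 6 above and 3 below.

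Ccnd3 was the D-type cyclin found in nearly every cell, Ccnd2 was found in some, and Ccnd1 was close to absent. Ccnd1 (chr7:144929931-144939925, minus strand, GRCm38, GENCODE M21 annotation, as for the genes that follow) had 79 reads in CD34- cells, 74 of them in cell 29. No Ccnd1 read fell in CD34+ cells, where a floor of 3 reads over the gate is 0.0999 CPM and the 95% Poisson upper bound of a count of 0 is 0.123 CPM. Nearly all Ccnd1 signal thus came from a single CD34- cell. Exons of Ccnd1 share 23.4% of their bases with LTO1 on the other strand.

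Ccnd2 (chr6:127125162-127152193, minus strand) ranged from 0 to 660.45 CPM per CD34- cell with a median of 11.3, and from 0 to 669 CPM per CD34+ cell with a median of 58.5. At the common depth it was found in 25 of 46 CD34- cells (54.3%, exact Clopper-Pearson 95% interval 39.01 to 69.1) and in 34 of 46 CD34+ cells (73.9%, 58.9 to 85.7). The gates overlapped over the whole range. Summed over cells, the level was 111 CPM (95% Poisson interval 108 to 115) in CD34- and 154 CPM (149 to 158) in CD34+ cells, a log2 fold of 0.46 (0.37 to 0.55), or 0.22 with scran size factors and 1.42, past a fold of 2, with ERCC scaling. Such intervals cover counting error only, since the reads carry no molecular identifiers.

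Ccnd3 (chr17:47505051-47599691, plus strand) ranged from 0 to 1504 CPM per CD34- cell with a median of 361, and from 0 to 909 CPM per CD34+ cell with a median of 248. Reads were found in 45 of 46 and 44 of 46 cells. Its summed level was 395 CPM in CD34- and 282 CPM in CD34+ cells, a log2 fold of -0.49, which turned to 0.48 when cells were scaled by ERCC reads. Ccnd3-ps, a pseudogene copy of Ccnd3, had 793 and 852 reads in the 2 gates, or 7.59% of the reads of Ccnd3, so reads could have been split between the pair.

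Both kinases of the D-type cyclins were higher in CD34+ cells. Cdk6 (chr5:3341485-3531008, plus strand) ranged from 0 to 1307 CPM per CD34- cell with a median of 49.5, and from 29.7 to 3815 CPM per CD34+ cell with a median of 1309. It was found in 32 of 46 CD34- cells and in all 46 CD34+ cells. The median CD34+ cell lay above the highest CD34- cell, although the gates overlapped through the lower CD34+ cells. The mean over cells was 214 ± 314 CPM (SD over cells, n = 46) against 1359 ± 941 CPM, and the log2 fold of summed CPM was 2.58 (2.53 to 2.62).

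Cdk4 (chr10:127063534-127067920, plus strand) ranged from 0 to 459 CPM per CD34- cell with a median of 1.39, and from 1.35 to 1347 CPM per CD34+ cell with a median of 162. It was found in 20 of 46 CD34- cells (43.5%, 28.9 to 58.9) and in 44 of 46 CD34+ cells (95.7%, 85.2 to 99.5). Most CD34- cells had little or no Cdk4 and few CD34+ cells did. The summed level was 59.6 and 227 CPM, a log2 fold of 1.91 (1.81 to 2.01). Exons of Cdk4 share 19.7% of their bases with Tspan31 on the other strand, and the strand setting of the counting is not given in the sources used here.

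The E-type cyclins, which drive CDK2, were found in a minority of cells and mostly in the CD34+ gate. Ccne1 (chr7:38097984-38107534, minus strand) was found in 3 of 46 CD34- cells and 8 of 46 CD34+ cells. Over all cells its median was 0 in both gates and its highest level was 111 CPM in a CD34- cell and 728 CPM in CD34+ cell 39. The summed level was 3.44 CPM in CD34- and 40.6 CPM in CD34+ cells, a log2 fold of 3.23 (2.94 to 3.52). CD34- cell 32 held 92 of the 115 CD34- reads, and without it the CD34- level was 0.71 CPM and the fold 4.61. Without CD34+ cell 39 the fold was 2.74.

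Ccne2 (chr4:11191351-11204779, plus strand) was found in 5 of 46 CD34- cells (10.9%, 3.62 to 23.6) and 19 of 46 CD34+ cells (41.3%, 26.998 to 56.8). Its levels reached 113 CPM in a CD34- cell and 249 CPM in a CD34+ cell, with medians of 0. The summed level was 5.98 and 32.2 CPM, a log2 fold of 2.25 (1.99 to 2.51), or 3.04 without CD34- cell 36. Exons of Ccne2 share 17.4% of their bases with Ints8 on the other strand.

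The 3 inhibitors differed from each other. Cdkn1b (chr6:134920401-134925513, plus strand) was found in most cells of both gates, 40 of 46 CD34- and 37 of 46 CD34+ cells. Its levels ran from 0 to 524 CPM with a median of 66.7 in CD34- cells, and from 0 to 771 CPM with a median of 53.9 in CD34+ cells. The summed levels of 104 and 107 CPM gave a log2 fold of 0.04 (-0.06 to 0.13), and its sign changed with the scaling, from -0.20 with scran size factors to 0.99 with ERCC reads. No direction between the gates is therefore given for Cdkn1b.

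Cdkn1a (chr17:29090976-29100727, plus strand) was found in 2 of 46 CD34- cells (4.35%, 0.531 to 14.8) and 10 of 46 CD34+ cells (21.7%, 10.9 to 36.4). Its highest cell was at 84.2 CPM in the CD34- gate and at 291 CPM in the CD34+ gate, with medians of 0. Summed levels were 2.33 and 18.1 CPM, a log2 fold of 2.52 (2.17 to 2.87). CD34+ cell 13 held 33.2% of the CD34+ reads, and CD34- cell 25 held 69.2% of the CD34- reads. Without cell 25 the CD34- level was 0.73 CPM and the fold 3.47, and without cell 13 the fold was 2.01.

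Cdkn2c (chr4:109660876-109667189, minus strand) was found in 6 of 46 CD34- cells and 17 of 46 CD34+ cells. It reached 315 CPM in a CD34- cell and 255 CPM in a CD34+ cell, with medians of 0. The summed level was 19.5 and 32.998 CPM, a log2 fold of 0.73 (0.54 to 0.93), or 0.50 with scran size factors and 1.66, past a fold of 2, with ERCC scaling. Without CD34- cell 36 the CD34- level was 12.97 CPM and the fold 1.28, past a fold of 2, and the fold also passed 2 without 1 other CD34- cell, cell 25. More CD34+ cells than CD34- cells had the gene, while its highest levels were close.

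**Figure D1:**
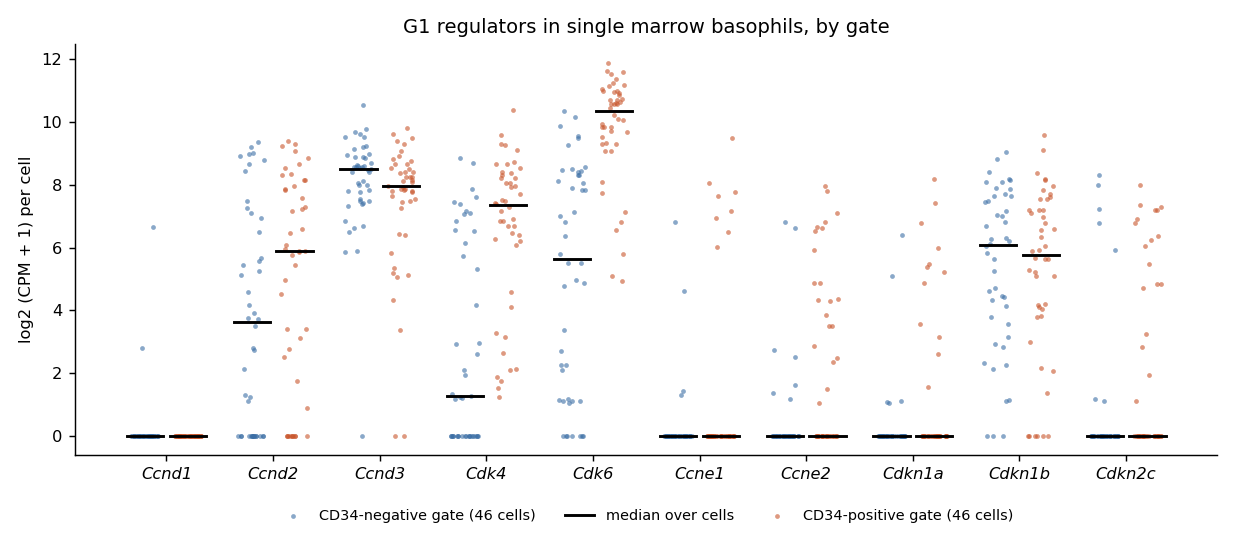
Level of each of the 10 genes in every kept cell, as log2 of CPM plus 1, with 46 CD34-negative cells in blue, 46 CD34-positive cells in orange and a line at the median. Cdk4 and Cdk6 stand higher in the CD34-positive gate, Ccnd3 and Cdkn1b have medians of 361 and 66.7 CPM against 248 and 53.9 CPM, and the medians of Ccne1, Ccne2, Cdkn1a and Cdkn2c are 0 in both gates.

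Counted by a fold of at least 2, 5 of the 10 genes were higher in the CD34+ gate (Cdk4, Cdk6, Ccne1, Ccne2 and Cdkn1a), where 21.7% of the 12460 genes with reads in at least 10 cells passed the same fold. Ccnd1 alone was lower, where 10.1% of those genes were. All of the 10 but Ccnd1 had reads in at least 10 cells, counted over both gates. Without drawing, Ccne1 had reads in 8 CD34+ and 4 CD34- cells, Ccne2 in 21 and 7, and Cdkn1a in 12 and 5. These genes thus passed that filter mainly through CD34+ cells, where they are higher, and the count is a description only. The median log2 fold of those 12460 genes was 0.19.

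The gates were also compared outside the high range. With the 22 CD34+ and 2 CD34- high-range cells left out, the log2 fold was 2.84 for Cdk6, 2.22 for Cdk4, 2.63 for Ccne1, 1.84 for Ccne2 and 1.34 for Cdkn1a. The same 5 genes passed a fold of at least 2, beside 20.9% of the 12460 genes, and for 3 of them that value rests mostly on a single CD34+ cell. For Cdk4 and Cdk6 these values are larger than those over all cells, and for the E-type cyclins and Cdkn1a they are smaller. All 376 Ccne1 reads of these CD34+ cells came from cell 39, whose percent of cell cycle genes found was 45.8, and 188 of 215 Ccne2 reads came from cell 16, at 43.8%. These cells had 76.2% and 64.3% of the S list found. Of 54 Cdkn1a reads, 47 came from cell 40, and detection was 1 of 24 CD34+ and 1 of 44 CD34- cells. Cdk4 was found in 22 of 24 such CD34+ cells and 18 of 44 such CD34- cells. In the high range it was found in 22 of 22 CD34+ cells.

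**Figure D2:**
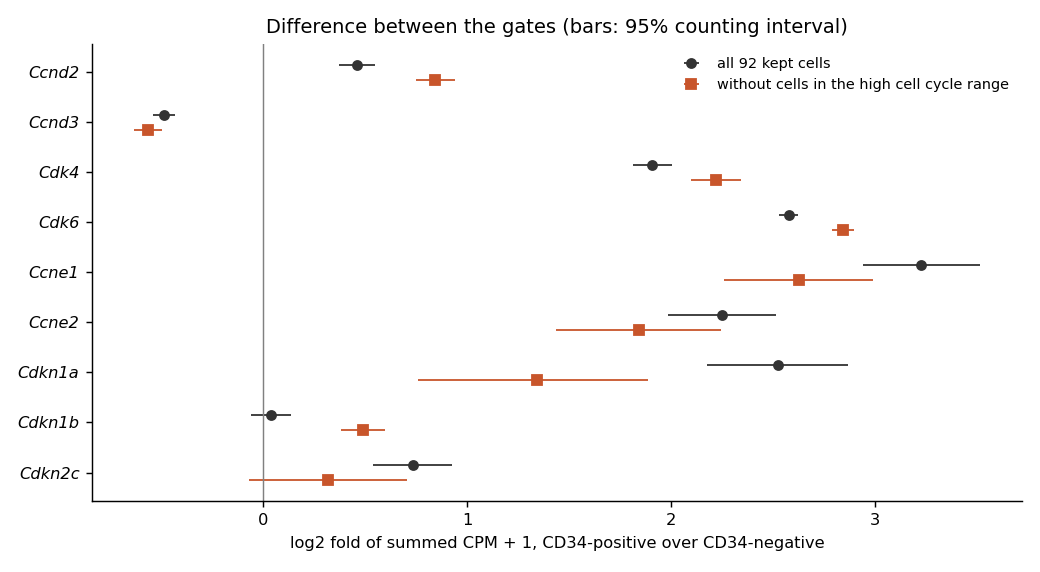
Log2 fold of summed CPM plus 1, CD34-positive over CD34-negative, for 9 genes over all 92 kept cells (black circles) and without high-range cells (orange squares), with 95% counting intervals. Ccnd1 is left out because it had 0 CD34-positive reads. Cdk4 and Cdk6 lie further from 0 without the high-range cells, Cdkn1a and the E-type cyclins lie closer, Ccnd3 is at -0.49 (0.48 with ERCC scaling) and Cdkn1b is at 0.04, with a sign that changes with the scaling.

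Within the CD34+ gate the regulators were set against the 2 phase lists separately. In 18 cells fewer than 50% of the genes of either list were found, in 16 cells at least 50% of the S list only, in 12 cells at least 50% of both, and in no cell of the G2/M list only. The median percent of S genes found was 30.95, 71.4 and 84.5 in these 3 sets, and that of G2/M genes 28.7, 34.3 and 86.1. Genes found per cell also moved with the sets, with medians of 6188, 6586 and 7168.5, as did gene reads per ERCC read, at 11.8, 15.4 and 19.9. Their part in what follows was not tested. This split was chosen after the data were seen.

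Ccnd2 was highest in cells with neither list and lowest in cells with both. Per-cell levels ran from 0 to 669 CPM with a median of 240.5 in the 18 cells with neither list, from 0 to 538 CPM with a median of 59.7 in the 16 cells with the S list only, and from 0 to 373 CPM with a median of 0.433 in the 12 cells with both. It was found in 16 of 18, 13 of 16 and 5 of 12 cells, and the sets overlapped. The summed level was 243, 124 and 56.9 CPM, and in cells with both lists it was 17.3 CPM without cell 10, which held 73.0% of their Ccnd2 reads. Splitting at 40% in place of 50% gave 215, 177 and 87.1 CPM, and splitting at 60% gave 230.4, 130.3 and 13.6 CPM in these 3 sets.

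Cdkn1b, the p27 inhibitor, was also highest in cells with neither list. Its summed levels were 156 CPM in cells with neither list, 79.1 CPM with the S list only and 68.5 CPM with both. Cell 7 held 40.3% of the S-only reads. With the highest cell of each set left out, the levels were 123, 50.1 and 58.4 CPM, so the last pair had no fixed order. Cell medians were 87.4, 48.1 and 43.2 CPM, and the highest cells were at 771, 559 and 230.2 CPM. Detection was 17 of 18, 11 of 16 and 9 of 12 cells. The 3 sets overlapped broadly in their Cdkn1b levels.

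The E-type cyclins had the order opposite to Ccnd2. Ccne1 had no read in the 18 cells with neither list, where a floor of 3 cells allows a share of up to 16.7%. It was found in 2 of 16 cells with the S list only and in 6 of 12 cells with both, where levels ran from 0 to 267 CPM with a median of 32.1. Summed levels were 0, 41.2 and 101 CPM, and the second value was 5.27 CPM without cell 39. Ccne2 was found in 2 of 18, 9 of 16 and 8 of 12 cells. Its summed levels were 1.18, 33.3 and 77.7 CPM, or 0.541, 16.6 and 48.0 CPM with the highest cell of each set left out. With the split at 40%, Ccne2 was found in 7 of 16 cells with the S list only, and with the split at 60% in 11 of 16.

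Cdkn1a and Cdkn2c were highest in the 12 cells with both lists. Cdkn1a was found in 1 of 18, 2 of 16 and 7 of 12 cells, with summed levels of 3.97, 2.22 and 60.9 CPM. All reads of the first set came from cell 40, and without cell 38 the second level was 0.901 CPM. In cells with both lists it ran from 0 to 291 CPM with a median of 19.5, and its summed level was 40.97 CPM without cell 13. Cdkn2c was found in 4 of 18, 4 of 16 and 9 of 12 cells, with summed levels of 3.97, 11.4 and 106 CPM, or 2.09, 4.36 and 96.9 CPM with the highest cell of each set left out. In cells with both lists its median was 96.4 CPM and its highest level 255 CPM, whereas the median was 0 in each of the other sets. When the split was set at 60% instead, 2 CD34+ cells had the G2/M list only, and both of them had reads of Cdkn2c (127 CPM over the pair) and Cdkn1a (47.4 CPM) and none of Ccne1, Ccne2 or Ccnd2. Cdkn1b was at 109 CPM in that pair, above the 84.2 and 55.5 CPM of the S list only and of both lists at that split. At 40%, 1 cell had the G2/M list only, with Cdkn1b at 771 CPM and no read of Cdkn1a or Cdkn2c.

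Of the kinases, Cdk6 had the order of Ccnd2 in its summed levels, at 1440, 1380 and 908 CPM, with cell medians of 1613, 1309 and 927, and it was found in every cell of the 3 sets. Splitting at 40% gave 1379, 1351 and 1089 CPM, and splitting at 60% gave 1514, 1180 and 1098 CPM. At 40% and with the highest cell of each set left out, the first 2 levels were 1261 and 1268 CPM. Cdk4 was at 159, 301 and 230 CPM in the 3 sets, with cell medians of 74.4, 297 and 151. Without cell 1 its level in cells with neither list was 95.9 CPM. Ccnd3 was at 259, 299 and 293 CPM, with cell medians of 248, 315 and 231. Which set was highest in summed Cdk4 depended on the split. Splitting at 40% gave 79.3, 247 and 261 CPM for Cdk4, and splitting at 60% gave 185, 277 and 289 CPM. The cell with the G2/M list only at 40% had 1347 CPM. Cell medians of Cdk4 stayed higher with the S list only than with both, at 280 and 181 CPM (40%) and 266 and 144 CPM (60%). So did levels without the highest cell, at 231 and 215 CPM (40%) and 252 and 184 CPM (60%).

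**Figure D3:**
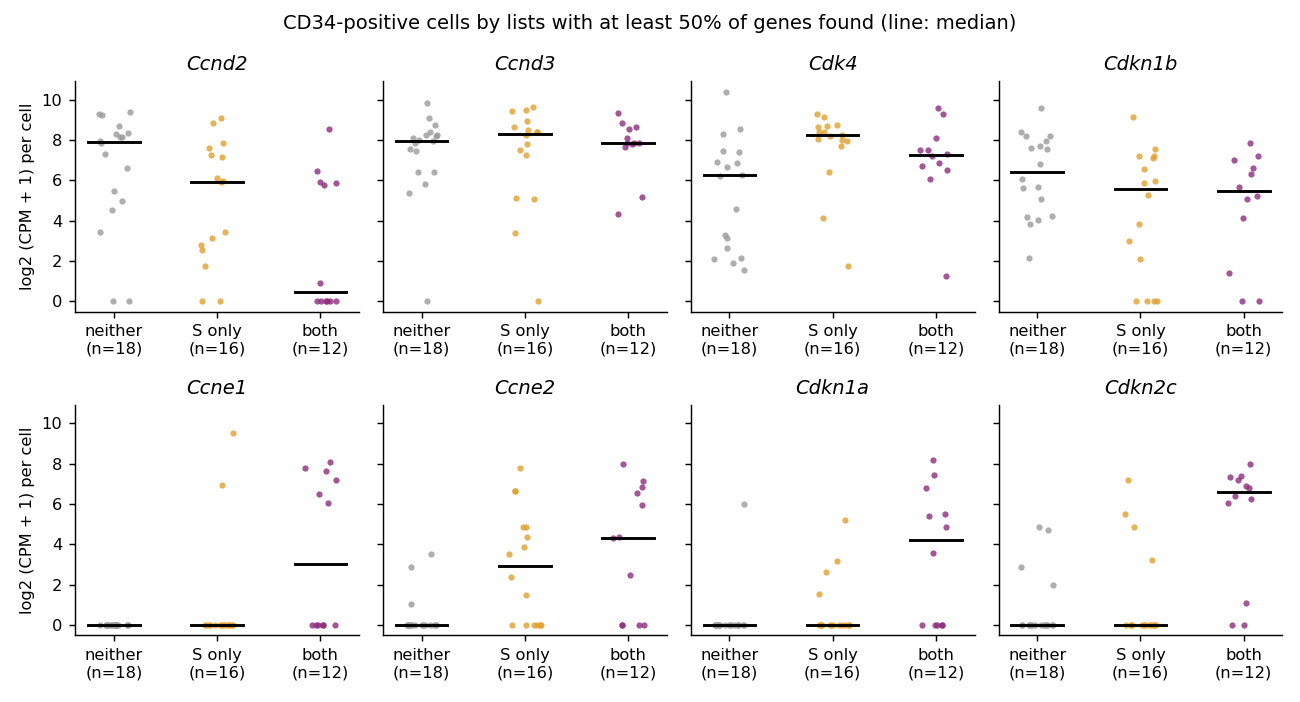
Level of 8 genes in each CD34-positive cell, as log2 of CPM plus 1, by whether at least 50% of the S list, of both lists or of neither was found at 200000 gene reads, with a line at the median. Ccnd2 medians go from 240.5 CPM in the 18 cells with neither list to 0.433 CPM in the 12 cells with both, while Cdkn1a and Cdkn2c have their highest medians, 19.5 and 96.4 CPM, in the cells with both.

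Set as 2 groups, the 22 high-range cells were compared with the 24 other CD34+ cells. An eosinophil list was at 161 CPM in high-range and 68.4 CPM in other cells, a neutrophil list at 39.9 and 91.3 CPM, and a monocyte and dendritic cell list at 27.8 and 72.4 CPM, and their part in the differences was not tested. Cdkn1a was at 35.2 against 3.36 CPM, a log2 fold of 3.05 (2.62 to 3.48), and was found in 9 of 22 against 1 of 24 cells. Cdkn2c was at 60.8 against 8.83 CPM, a log2 fold of 2.65 (2.34 to 2.97). Ccne2 was at 53.8 against 13.4 CPM, a log2 fold of 1.93 (1.65 to 2.22), and was found in 14 of 22 against 5 of 24 cells. Ccne1 was at 60.4 against 23.4 CPM, a log2 fold of 1.33, which became 5.94 without cell 39 and 0.95 without cell 28. These 4 of the 10 genes were at least 2-fold higher. Ccne1, with reads in 8 CD34+ cells, is not among the 10797 genes with reads in at least 10. That set holds 8 of the 10 members and 3 of the 4, beside 13.2% of its genes. Without drawing, Cdkn1a had reads in 9 high-range and 3 other cells, Ccne2 in 14 and 7, and Cdkn2c in 11 and 7. They thus passed that filter more through high-range than through other cells.

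On the lower side stood Ccnd2 and Cdkn1b, 2 of the 10 genes, against 10.3% of all genes tested. Ccnd2 was at 97.8 CPM in high-range cells (0 to 538 per cell, median 8.68) and at 202 CPM in the others (0 to 669, median 149), a log2 fold of -1.04 (-1.17 to -0.91). Cdkn1b was at 59.7 CPM (0 to 230.2, median 37.4) and 147.5 CPM (0 to 771, median 79.2), a log2 fold of -1.29 (-1.45 to -1.14). When the 22 cells were chosen by the summed CPM of the lists instead, the Ccnd2 value was -1.32 and the Cdkn1b value was 0.077. With ERCC scaling neither gene passed a fold of 2, at -0.68 for Ccnd2 and -0.93 for Cdkn1b. Leaving out single cells moved Ccnd2 between -1.40 and -0.87, and it was under a fold of 2 with any one left out of the 16 CD34+ cells 2, 4, 5, 9, 11, 12, 13, 14, 15, 25, 28, 31, 34, 37, 40 and 46. Cdk4, Ccnd3 and Cdk6 had log2 folds of 0.18, 0.16 and -0.44.

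A low range, under 20% of the lists found, held only 2 CD34+ cells. In these, Ccnd2 was at 285 and 669 CPM and Cdkn1b at 286 and 334 CPM, and Ccne1 and Cdkn1a had no read. Against these 2 cells, 7 of the 10 genes were at least 2-fold higher in the high range and 2 lower. Among the 8 members of the 10797 genes, which leave out Ccne1, 6 were higher and 2 lower, where 49.3% and 15.4% of all those genes were.

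Ranked over the 46 CD34+ cells, 4 genes had a Spearman rho of at least 0.4 with the percent of cell cycle genes found: Cdkn1a and Cdkn2c at 0.48, Ccne1 at 0.43 and Ccne2 at 0.42. Of the 8 members among the 10797 genes, which leave out Ccne1, 3 reached that value, as did 5.51% of those genes. Ccnd2 had a rho of -0.46, and 0.732% of genes reached -0.4. Cdkn1b stood at -0.28, Cdk4 at 0.33, Cdk6 at -0.08 and Ccnd3 at 0.03. The percent found had itself a rho of 0.48 with genes per cell, which all of these values share. With genes per cell regressed out, Ccnd2 was at -0.53, Ccne1 at 0.51, Cdkn2c at 0.46, Cdkn1a at 0.43 and Ccne2 at 0.40. Against the S list alone, Ccne2 had 0.59 and Ccne1 0.52, and Cdk4 0.42, past 0.4, while Cdkn1a and Cdkn2c had 0.32 and 0.29 and Ccnd2 had -0.31, which did not reach -0.4. Against the G2/M list alone, Cdkn1a had 0.42, Cdkn2c 0.41 and Ccnd2 -0.41, while Ccne1 had 0.26 and Ccne2 0.24. Against the summed CPM of both lists, Ccne2 had 0.38 and did not reach 0.4.

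In the CD34- gate Ccnd2 had a rho of 0.35 with the percent found over 46 cells, a difference between gates that was not tested, and Cdk6 had the highest value of the 10 genes, 0.48, where 5.67% of genes reached 0.4. No member reached -0.4 there, where 0.789% of genes did. The percent found had a rho of 0.82 with genes per cell in this gate. With genes per cell regressed out, Cdk6 was at 0.03 and Ccnd2 at 0.20. Of the 46 cells, 36 were under 20%.

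The 2 high-range CD34- cells, cells 25 and 36, carried several of the same genes as high-range CD34+ cells. Cdkn2c was at 315 and 256 CPM in them, and its summed level of 280.3 CPM compared with 6.90 CPM in the other 44 CD34- cells. Cdk4 was at 232 and 459 CPM, and the other cells had a median of 1.34 and a highest value of 417 CPM. Cell 25 held 54 Cdkn1a reads (84.2 CPM) and cell 36 held 101 Ccne2 reads (113 CPM) and 21 Ccne1 reads. Ccnd2 was at 34.3 and 137 CPM, and Cdkn1b at 200 and 7.81 CPM. Of the 5 members among the 8363 genes with reads in at least 10 CD34- cells, 2 (Cdk4 and Cdk6) were at least 2-fold higher, where 18.2% of those genes were, and none was lower, where 37% were. Ccne1, Ccne2, Cdkn1a and Cdkn2c also passed a fold of 2 but lie outside that set. The comparison rests on 2 cells.

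**Figure D4:**
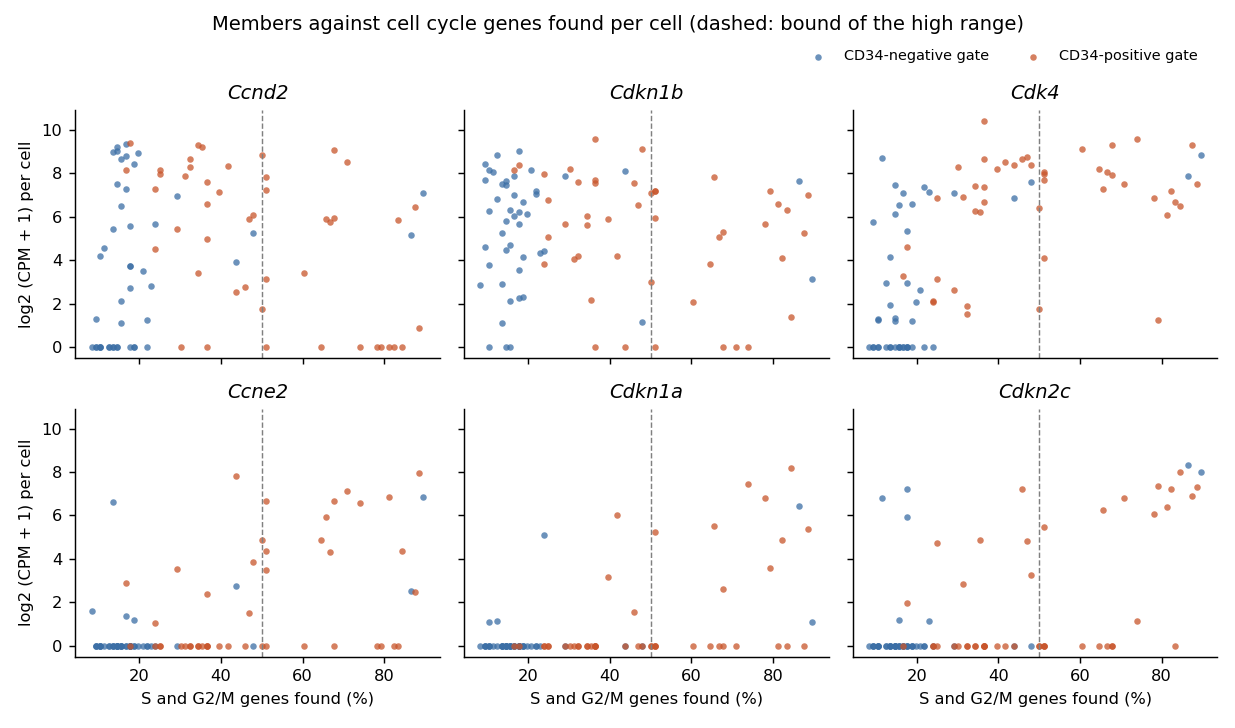
Level of 6 genes in each kept cell, as log2 of CPM plus 1, against the percent of 96 S and G2/M genes found at 200000 gene reads, with CD34-negative cells in blue, CD34-positive cells in orange and a dashed line at the 50% bound. Cdkn2c is at 256 and 315 CPM in the 2 CD34-negative cells right of the line, and CD34-positive cells without a Ccnd2 read gather at the right.

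Combinations within a cell were counted at 200000 gene reads. Ccne1 and Ccne2 were found together in 7 of 22 high-range CD34+ cells (31.8%, 13.9 to 54.9) and in 0 of 24 others, of which only 1 had Ccne1. Every high-range cell with Ccne1 thus also had Ccne2. Ccnd2 without either E-type cyclin was found in 5 of 22 high-range cells (22.7%, 7.82 to 45.4) and in 16 of 24 others (66.7%, 44.7 to 84.4). Cdkn1b and an E-type cyclin shared a cell in 10 of 22 high-range cells and 4 of 24 others. Over all 46 cells, 37 had Cdkn1b, 20 had an E-type cyclin and 14 had both, and the rho of Cdkn1b with Ccne2 was -0.23. Pairs were correlated only among the 8 members with reads in at least 10 CD34+ cells. Ccnd1 and Ccne1 were left out, so no rho of Ccne1 with Ccne2 was computed. Over the 46 CD34+ cells the rho of Cdkn1a with Cdkn2c was 0.43, the highest of the 28 pairs computed. That of Ccnd3 with Cdk6 was -0.40, the lowest. Ccnd2 had -0.38 with Cdkn1a and 0.02 with Cdkn1b.

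Levels were compared between genes per kilobase of exon, with all annotated exons of a gene merged. Merged lengths ran from 2.66 kb for Ccne1 to 13.99 kb for Cdk6. They are not the length of a single transcript, so the orders below depend on the annotation. Per kilobase of exon, the CD34- order was Ccnd3 at 45.1 CPM, Cdkn1b at 22.9, Cdk4 at 18.4, Cdk6 at 15.3, Ccnd2 at 11.8, Cdkn2c at 7.25, Ccne2 at 1.71, Ccne1 at 1.29, Cdkn1a at 0.656 and Ccnd1 at 0.502. The CD34+ order was Cdk6 at 91.6 CPM, Cdk4 at 69.7, Ccnd3 at 32.1, Cdkn1b at 23.4, Ccnd2 at 16.3, Ccne1 at 15.2, Cdkn2c at 12.3, Ccne2 at 9.20, Cdkn1a at 5.11 and Ccnd1 at 0. Without cell 39 the CD34+ level of Ccne1 was 10.7 CPM per kilobase, below Cdkn2c over all cells, and without cell 32 its CD34- level was 0.26, below Cdkn1a and Ccnd1 over all cells. Neighbours in each order overlapped in their quartiles over cells, other than Ccnd2 and Ccne1 in CD34+ cells, with quartiles of 0.312 to 26.03 CPM per kilobase and of 0. Cell by cell, Ccnd2 exceeded Ccnd3 per kilobase in 13 of 46 CD34+ cells and 6 of 46 CD34- cells. Among CD34+ cells this was 4 of 22 in the high range and 9 of 24 outside it. Cdk6 exceeded Cdk4 per kilobase in 33 of 46 CD34+ cells and in 26 of 46 CD34- cells, with Cdk4 ahead in 16 of the latter. The CD34- cell medians, 3.54 CPM per kilobase for Cdk6 and 0.43 for Cdk4, thus stood in the order opposite to the summed levels.

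Upstream sequence was read for every member with a RefSeq entry, since many S phase genes carry E2F sites. That set holds Ccnd3, Cdk4, Cdk6 and Cdkn1b, which did not reach a rho of 0.4 with the percent found in either direction, and lacks Ccnd2 and Ccne2, which did. RefSeq (GRCm38.p6) gave start sites for 7 of the 10 genes, 10 promoters in all, with no entry used for Ccnd1, Ccnd2 and Ccne2. In the 250 bases upstream, on both strands, an E2F form of 8 letters (TTTGGCGC, TTTCCCGC, TTTGCCGC or TTTCGCGC) was in 0 of the 10 member promoters, in 26.5% of 34 promoters of the S list and in 1.86% of all 32851. A form without the leading T, searched after the longer form gave no member match, was in 1 member promoter, in 52.9% of S list promoters and in 7.89% of all. The match was TTCCCGC, 25 bases before a start of Cdkn2c, and is in capitals in the first sequence, with a Ccne1 promoter that held neither form shown for comparison. Each is 250 bases, 5′ to 3′ on the gene's strand, from chr4:109666757-109667006 (minus strand) and chr7:38107491-38107740 (minus strand).
Cdkn2c: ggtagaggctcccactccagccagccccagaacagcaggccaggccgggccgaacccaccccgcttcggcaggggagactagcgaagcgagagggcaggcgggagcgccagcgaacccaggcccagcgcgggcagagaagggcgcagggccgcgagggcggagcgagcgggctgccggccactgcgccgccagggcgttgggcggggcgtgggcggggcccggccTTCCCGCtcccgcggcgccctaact
Ccne1: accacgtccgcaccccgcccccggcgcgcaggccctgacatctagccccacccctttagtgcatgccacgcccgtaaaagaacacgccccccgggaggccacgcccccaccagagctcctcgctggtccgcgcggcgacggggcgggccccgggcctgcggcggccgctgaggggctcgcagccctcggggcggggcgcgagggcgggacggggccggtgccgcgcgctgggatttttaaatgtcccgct
The Cdkn2c stretch is 77.2% G and C and the Ccne1 stretch 76.0%. The CHR letters TTTGAA, found in 40.4% of G2/M list promoters and 15.99% of all, were in no member promoter. A forkhead motif, TGTTTAC, was in 1 of the 10, an upstream start of Ccnd3, and in 3.17% of all. A match is only a match of letters.

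Partners of the 10 genes were taken from lists of the same pathway. Of 12 genes of the retinoblastoma and E2F families, 11 had reads in at least 10 cells, and 5 of these were at least 2-fold higher in CD34+ cells and none lower, beside 21.7% and 10.1% of all genes, with a median log2 fold of 0.69 beside 0.19. Within the CD34+ gate 8 of the 11 were at least 2-fold higher in high-range cells and none lower, beside 13.2% and 10.3% of all genes, with a median of 1.09 beside -0.01. With ERCC scaling the gate count was 8, and with scran the high-range count was 6. With high-range cells left out, the log2 fold between gates was -1.25 for Rb1, -1.21 for E2f2 and -0.28 for E2f1. Rbl1 at 1.74, E2f3 at 3.72, E2f7 at 2.44 and Tfdp2 at 1.07 stayed at least 2-fold higher in CD34+ cells. E2f1, an activator E2F, was at 162 CPM in high-range cells and 12.1 CPM in other CD34+ cells. E2f7, a repressor of E2F targets, was at 93.1 and 4.42 CPM. Rbl1 (p107), a pocket protein related to Rb1, was at 163 and 51.5 CPM, and Rb1 itself at 119 and 56.9 CPM, a log2 fold of 1.05 that lay under 1 with any 1 of 10 cells left out. Rbl2 (p130), the pocket protein known from resting cells, was at 158 and 126 CPM, a log2 fold of 0.32.

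Another list held 9 genes of the G1 and S phases, cyclins and kinases but also Cdc25a and Mnat1, which are neither. Of these, 8 were tested. In CD34+ cells 4, Cdk2, Ccna2, Cdc25a and Mnat1, were at least 2-fold higher and 1 lower, beside 21.7% and 10.1% of all genes. With ERCC scaling these counts were 7 and 0. Within the CD34+ gate 2 of the 8, Ccna2 and Cdk2, were at least 2-fold higher in high-range cells and none lower, beside 13.2% and 10.3%, and 4 were higher with ERCC scaling. Ccna2, the S and G2 cyclin, was at 148 CPM in high-range cells and 0.062 CPM in other CD34+ cells. Cdk2, the kinase of the E-type cyclins, was at 96.5 and 30.2 CPM, and it was found in 37 of 46 CD34+ cells and 13 of 46 CD34- cells. Cdc25a, the phosphatase that activates CDK2, was at 69.4 CPM in CD34+ and 2.21 CPM in CD34- cells, with 89.4 CPM in the high range and 52.0 CPM outside it. Cdk7, a kinase that activates other CDKs, was at 28.01 CPM in the high range and 50.3 CPM outside it, a log2 fold of -0.82. Ccng2, a cyclin known from cells that leave the cycle, was at 49.4 CPM in CD34+ and 140 CPM in CD34- cells, a log2 fold of -1.48, or -0.53 with ERCC scaling.

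Other inhibitors were mostly out of reach. Cdkn2a and the cyclin Ccna1 had no read in any kept cell, Cdkn1c had 1 and Cdkn2b had 48 in CD34- and 23 in CD34+ cells. Cdkn2d (p19), the close relative of Cdkn2c, was at 90.8 CPM in high-range and 14.1 CPM in other CD34+ cells, a log2 fold of 2.60. Between gates Cdkn2d was at 49.7 CPM in CD34+ and 73.4 CPM in CD34- cells. That log2 fold was -0.55, or 0.40 with ERCC scaling and -2.19 with high-range cells left out. Cdkn3, a phosphatase that acts on CDKs, was at 31.5 CPM in high-range and 1.06 CPM in other CD34+ cells. Of 6 genes of the ubiquitin ligases that degrade G1 cyclins and their inhibitors, 5 were tested and 2 were at least 2-fold higher in CD34+ cells, beside 21.7% of all genes, Skp2 at 17.5 against 4.49 CPM and Fbxw7 at 49.1 against 11.8 CPM. The Skp2 log2 fold of 1.76 was 3.93 without CD34- cell 36, and with ERCC scaling all 5 were at least 2-fold higher. Within the CD34+ gate 1 of the 5 was at least 2-fold higher in the high range and none lower, beside 13.2% and 10.3% of all genes. It was Skp2, which marks p27 for degradation, at 31.8 CPM in the high range and 5.16 CPM in other cells. Skp1a and Ube2r2 had log2 folds of -0.62 and -0.22.

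Genes that act on the level of these regulators were also listed. Of 9 listed, 8 were tested, with 2 at least 2-fold higher and 3 lower in CD34+ cells, beside 21.7% and 10.1% of all genes. Myc, which drives Ccnd2 and Cdk4, was at 127 CPM in CD34+ and 59.5 CPM in CD34- cells. Trp53, which encodes p53, was at 132 and 64.7 CPM. Their folds of 1.08 and 1.02 on the log2 scale became 0.84 and 0.78 with scran size factors. Without CD34+ cell 1 the Myc fold was 0.52, and leaving out any 1 of 33 cells put Trp53 under a fold of 2, down to 0.94. The counts of 2 and 3 became 0 and 4 with scran or TMM and 3 and 1 with ERCC scaling. The antiproliferative genes Btg1 and Btg2 were at 78.7 and 57.5 CPM in CD34+ cells and at 218 and 203 CPM in CD34- cells, log2 folds of -1.46 and -1.80, or -0.50 and -0.85 with ERCC scaling, which pass no fold of 2. Klf2, a quiescence factor of lymphocytes, was at 1.498 and 8.46 CPM. Within the CD34+ gate 7 of the list were tested, with none at least 2-fold higher in the high range and 1 lower, beside 13.2% and 10.3% of all genes. That gene, Btg2, was at 36.1 CPM in high-range and 76.1 CPM in other cells, a log2 fold of -1.05, or -0.70 with ERCC scaling, and it was under a fold of 2 with any 1 of 13 cells left out. Mdm2, an inhibitor of p53, was at 70.0 and 130 CPM, a log2 fold of -0.88.

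Genes most like a member were searched over the 46 CD34+ cells by Spearman rho of log2 CPM plus 1, among genes with reads in at least 23 of those cells, and for the 5 members that had them. Ccnd2 was most like Csrp3 (0.60), Rnf2 (0.54) and Cd34 itself (0.52). Ccnd3 was most like Ccnd3-ps (0.73), followed by Larp1b (0.56) and A530064N14Rik (0.52). Cdk6 was most like Rpl39 (0.76), Rps20 (0.71) and Gm4332 (0.71), and Cdk4 most like Rpl14 (0.63), Pdcd6 (0.61) and Mrpl12 (0.61). Cdkn1b was most like Wnk1 (0.55), 2310001H17Rik (0.54) and Kdm2a (0.53). The values are the 3 highest per member among 6995 genes searched and are given as a description.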

How the data were processed

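The authors deposited one table of whole read counts per gene and cell, not normalized. Per the submitters' processing notes, GSNAP, HTSeq 0.5.3p3 and build mm10 (GRCm38) were used. The annotation and the strand setting are not given in the sources used here. Per the labels' protocols, polyadenylated RNA of sorted cells was amplified over 19 PCR cycles with ERCC spike-ins and read as 50 bp single-end reads. Of all reads, 32.4% fell in genes, 3.97% in ERCC sequences, 7.68% were ambiguous, 33.03% hit no gene and 22.9% were not aligned. Only gene reads entered library sizes.

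Kept cells had at least 50000 gene reads and 1000 genes, under 20% mitochondrial reads, and an ERCC share below 50%. This left 92 of 94 cells. Reads were summed over cells and scaled to CPM, and folds are log2 of CPM plus a pseudocount of 1. Intervals are exact Poisson or Clopper-Pearson at 95%, and those of folds set opposite bounds against each other. A count of 0 is given with a floor of 3 reads or cells. For shares and scores, 200000 gene reads were drawn per cell. No test was run, since each gate is 1 sample. Gene symbols covered 45143 of 46078 identifiers. Fold calculation and drawing were tested on simulated data. The genes named are the 10 members, list genes seen in 10 or more of the kept cells, and the 3 genes most like each member with reads in at least 23 CD34+ cells. Cdkn2a, Ccna1, Cdkn1c, Cdkn2b and the markers Ltf, Camp and Hba-a1 were named outside that rule after their values were seen. So were the overlapping genes LTO1, Tspan31 and Ints8. The members and lists were chosen with earlier results of these data known. The low range proved to hold 2 CD34+ cells, so the comparison of high-range with all other CD34+ cells was added after seeing the data. Alternatives were other scalings (mean per-cell CPM, scran 1.30.0, edgeR 4.0.16 TMM factors, ERCC reads), pseudocounts of 0.1 and 10, no cell filter, other bounds and lists for the ranges, 100000 reads drawn, and leaving out cells. The work used R 4.3.3 and Python 3.11.15 with pandas 2.3.3, scipy 1.17.1, numpy 2.4.6 and matplotlib 3.10.9.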

Additional observations from a re-analysis of the deposited data

Results flagged for a closer look

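One of the 2 cells left out for low reads, CD34+ cell 3 with 31504 gene reads, held 62 reads of the 10 genes, and was singled out because these reads stand outside every comparison. They were 26 of Cdk6, 19 of Ccnd3, 8 of Cdk4, 7 of Ccnd2, 1 of Ccne1 and 1 of Cdkn1b. The other cell left out, CD34- cell 20 with 24565 gene reads, held 0.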

How the results depend on the processing

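The count of genes at least 2-fold higher in the CD34+ gate was 5 and ran from 5 to 7 over 9 alternatives, with Ccnd2 and Cdkn2c added under ERCC scaling. The count lower was 1, Ccnd1, and became 0 with a pseudocount of 10 CPM and without the cell holding most reads. Leaving out each of the 92 cells in turn gave 5 to 6 higher and 0 to 1 lower, with 0 without CD34- cell 29. In high-range against other CD34+ cells, 4 genes were higher (3 to 4 over 11 alternatives and 3 to 4 without each cell) and 2 lower (1 to 2 without each cell). The count of 2 became 1 with the G2/M list alone, with summed CPM of both lists, with bounds of 40% and 15%, with a pseudocount of 10 CPM and without the cell holding most reads, and 0 with ERCC scaling. Ccnd2 kept its sign in all 11, from -1.70 to -0.68, and Cdkn1b in 10 of 11, turning to 0.077 with summed CPM. Against the 2 low-range cells, 7 were higher (5 to 7 over 10 alternatives and 5 to 7 without each cell) and 2 lower (2 to 2 without each cell, 1 with summed CPM), and Cdk6 turned from 1.53 to -0.42 with summed CPM. The bounds of 40% and 15% could not be run there, since no CD34+ cell was under 15%. The count of 4 genes with a rho of at least 0.4 became 2 with the G2/M list alone. The causes were not tested. Across all genes the median log2 fold between gates was 0.19, -0.01 with scran, 0.02 with TMM and 1.04 with ERCC scaling, and the share of genes higher in CD34+ cells was 58.9%, 49.8%, 51.2% and 87.6%. Between high-range and other CD34+ cells it was -0.02, and 0.32 with ERCC scaling. With no filter on low genes, 8.60% of all genes were at least 2-fold higher in the CD34+ gate and 4.49% lower. No paired analysis was possible because cell numbers in the titles are names without a pairing and nothing here was tested. Depth limits what a 0 can show, and genes seen in few cells rest on few amplified molecules.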
